A study of Nannospalax ehrenbergi and Mus musculus with 25 samples.

Results

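The matrix metalloproteinases (MMP), the ADAMTS proteases, the ADAMTS-like proteins and the tissue inhibitors of metalloproteinases (TIMP) were examined by RNA-seq in neck muscle and tumors of the blind mole rat Spalax and of the mouse. The genes were chosen by symbol alone, taking every row named Mmp, Timp, Adamts or Adamtsl with its number, and rows without a read in any library were dropped. In Spalax 49 of 27988 genes qualified, namely 21 MMP, 19 ADAMTS, 5 ADAMTS-like and 4 TIMP genes. In the mouse 50 of 47593 genes did, after Mmp20 had been dropped for want of reads, and 47 of the 52 genes found in either species carried the same symbol in both. Mmp1a, Mmp1b and Mmp23 were in the mouse set only, and Mmp20 and Mmp23b in the Spalax set only.

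Treated animals had received the carcinogen 3-methylcholanthrene (3MCA) once, under the skin of the neck, at 1 mg in Spalax and 200 µg in mice. Spalax control comprised 4 untreated females, and Spalax tolerant comprised 4 injected animals (3 males and 1 female) that carried no tumor 18 or 30 months after the injection and were sampled at the injected side. A pair of females bore a granuloma, a benign fibrotic mass, at 14 and 16 months after injection, and a female and a male bore a fibrosarcoma, a malignant tumor of fibroblast-like cells, at 18 and 30 months. From each of these 4 animals the tumor at the injection site (IS) and muscle of the uninjected side (UIS) were sequenced. The mice were male C57BL/6, namely 3 untreated controls and 3 animals with a fibrosarcoma 11, 12 or 14 weeks after injection, sampled at IS and UIS. Spalax were caught in the wild and could only be roughly aged. The design text lists animals of about 2 years and of 10 years or older, the methods give a range between such ages for the treated animals, and the mice were 3 to 4 months old. The age of each Spalax was not given in the sources used here. Each library came from 1 animal and side. All control and tolerant libraries carried dual indexes and all libraries of tumor-bearing animals single ones, so index and group cannot be told apart between these sets.

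MMPs are zinc-dependent enzymes that are made as inactive precursors and, once activated, cut collagens, proteoglycans and other proteins of the extracellular matrix. TIMPs bind the active site of these enzymes and block it. ADAMTS proteases are secreted relatives that trim procollagens and cleave proteoglycans such as aggrecan and versican, whereas ADAMTS-like proteins share their accessory modules but lack the catalytic part. In skeletal muscle these genes serve the turnover of the connective tissue around the fibers, and in sarcomas and healing wounds many of them are made by fibroblasts, macrophages and neutrophils.

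The coding sequence of the zinc-binding motif is shown for 10 mouse proteases on which the results turn, since it is the feature that separates the enzymes from their inhibitors. The 33 bases encode 11 residues, and capitals mark the codons of the zinc-binding histidines and of the catalytic glutamate. They were read from the GENCODE vM21 transcripts of the GRCm38 assembly.
Mmp3: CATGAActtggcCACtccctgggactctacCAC
Mmp10: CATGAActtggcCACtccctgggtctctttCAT
Mmp13: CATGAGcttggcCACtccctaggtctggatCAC
Mmp8: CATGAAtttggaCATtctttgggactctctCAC
Mmp12: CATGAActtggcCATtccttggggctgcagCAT
Mmp2: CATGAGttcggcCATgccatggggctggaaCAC
Mmp9: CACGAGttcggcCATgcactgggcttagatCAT
Mmp14: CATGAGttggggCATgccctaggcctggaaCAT
Adamts4: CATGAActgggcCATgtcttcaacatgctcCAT
Adamts14: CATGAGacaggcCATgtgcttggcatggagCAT
Mmp3 and Mmp10, the stromelysins, were identical at 29 of the 33 positions, Mmp14 and Mmp2 at 27, and Mmp3 and Adamts4 at 19. A motif of this kind, with glycine or asparagine in its middle, was found in 22 of 23 annotated mouse MMP genes and in 18 of 19 ADAMTS genes. It was in none of the 5 ADAMTS-like and none of the 4 TIMP genes. Mmp1a, annotated as a polymorphic pseudogene, and Adamts8 were the exceptions, which says only that this pattern is not in their longest annotated coding sequence.

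Of the mouse MMP genes 10 lie side by side on chromosome 9, at chr9:7272514-7699585, in the order Mmp13, Mmp12, Mmp1b, Mmp3, Mmp1a, Mmp10, Mmp8, Mmp27, Mmp20 and Mmp7. Mmp3 and Mmp10 have 0.235% and 0.247% of their 101-base windows, the length of a read, in common with each other. The windows that Mmp1a and Mmp1b share make up 1.73% and 2.59% of each, so that few reads of these near copies could be assigned to the wrong gene. Timp1, Timp3 and Timp4 each lie within a synapsin gene (Syn1, Syn3 and Syn2) on the opposite strand. The exons of Timp3 overlap those of Syn3 over 21.3% of their length and the exons of Timp4 those of Syn2 over 1.53%. The libraries kept the strand, but the strand setting of the counting was not given in the sources used here. No annotation of the Spalax genome was used here.

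Values are normalised read counts, in which the authors had scaled each library by a size factor of its own. The Spalax libraries held 17025447 to 23386729 reads and the mouse libraries 22143060 to 31179183, and a normalised count of 10 stood for 6.95 to 19.3 reads. In the uninjected libraries the sum of the skeletal muscle markers lay between 811900 and 4084000. It was 176.8 to 66860 at the tumor sites, where none of these markers was at 0. The fibroblast marker sum was 113800 to 1837000 at the tumor sites against 5042 to 56870 in control and UIS libraries, and the macrophage sum 3353 to 33840 against 300.9 to 3189. Of the 7 fibroblast markers limma called 5 higher at the IS in granuloma, 2 (Col1a1 and Col1a2) in fibrosarcoma and 5 in mouse. The shares of all genes were 11.7%, 17.4% and 22.8%. Thy1 rose in the mouse but was 153.2 and 86.4 in granuloma IS against 1160 and 368.6 in UIS. In fibrosarcoma it was 12550 and 44.9 against 2051 and 1872. More cells of a type and more RNA per cell cannot be told apart in such bulk tissue, and the part of tissue makeup in the differences below was not tested. The library of tolerant 2251 stood apart from the other 3 tolerant libraries, with a fibroblast sum of 186100 against 7975 to 43130, and is described separately.

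The first comparison asked which of the genes differed between tumor and uninjected muscle. In granuloma 23 of the 43 genes that passed the filter on low values were called by limma at an adjusted p of at most 0.05, where 24.3% of all 14735 genes tested were. Of the 23 genes 20 rose at the IS, against 11.7% of all genes. In Spalax fibrosarcoma 19 of 40 were called, against 36.3% of all genes, and 13 of them rose, against 17.4%. Mouse fibrosarcoma gave 22 calls among 38 genes, against 45.1%, with 18 that rose, against 22.8%. The median log2 difference over the tested genes was 1.30, 1.72 and 2.00, where the median of all genes was −0.01, 0.03 and 0.11. Scaling by total reads shifted that median of all genes to 0.72, 0.83 and 1.16. Of the calls then made, 20 of 25 in fibrosarcoma and 22 of 23 in mouse were rises. Under that scaling 58.1%, 62.5% and 60.5% of the tested members were called, against 30.5%, 46.5% and 60.7% of all genes. In the mouse the members were thus not called more often than all genes.

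These counts rest on few animals. Without any 1 of the 4 granuloma libraries limma called no member at the adjusted threshold, while 21 to 26 had an unadjusted p below 0.05. These zeros were not particular to the members, since no gene of all those tested was called either, and 21.6% to 39.7% of all genes against 47.7% to 57.8% of the members had an unadjusted p below 0.05. In Spalax fibrosarcoma 0 were called without UIS 2230 or UIS 2240, 29 (69.0%) without IS 2230 and 30 (73.2%) without IS 2240. Over all genes tested the shares were 0% without either UIS, 47.0% without IS 2230 and 51.4% without IS 2240. With mouse 1023 removed on both sides there were 0 calls (19 at an unadjusted p below 0.05), against 18 without mouse 1019 and 21 without mouse 512. The shares of all genes called were 0%, 26.4% and 50.4%. Without 1 library at a time, the mouse gave 14 calls (without UIS 1023 or IS 1023, where 29.3% and 26.9% of all genes were called) to 22, and 15 without IS 1019 (30.6% of all genes).

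**Figure D1:**
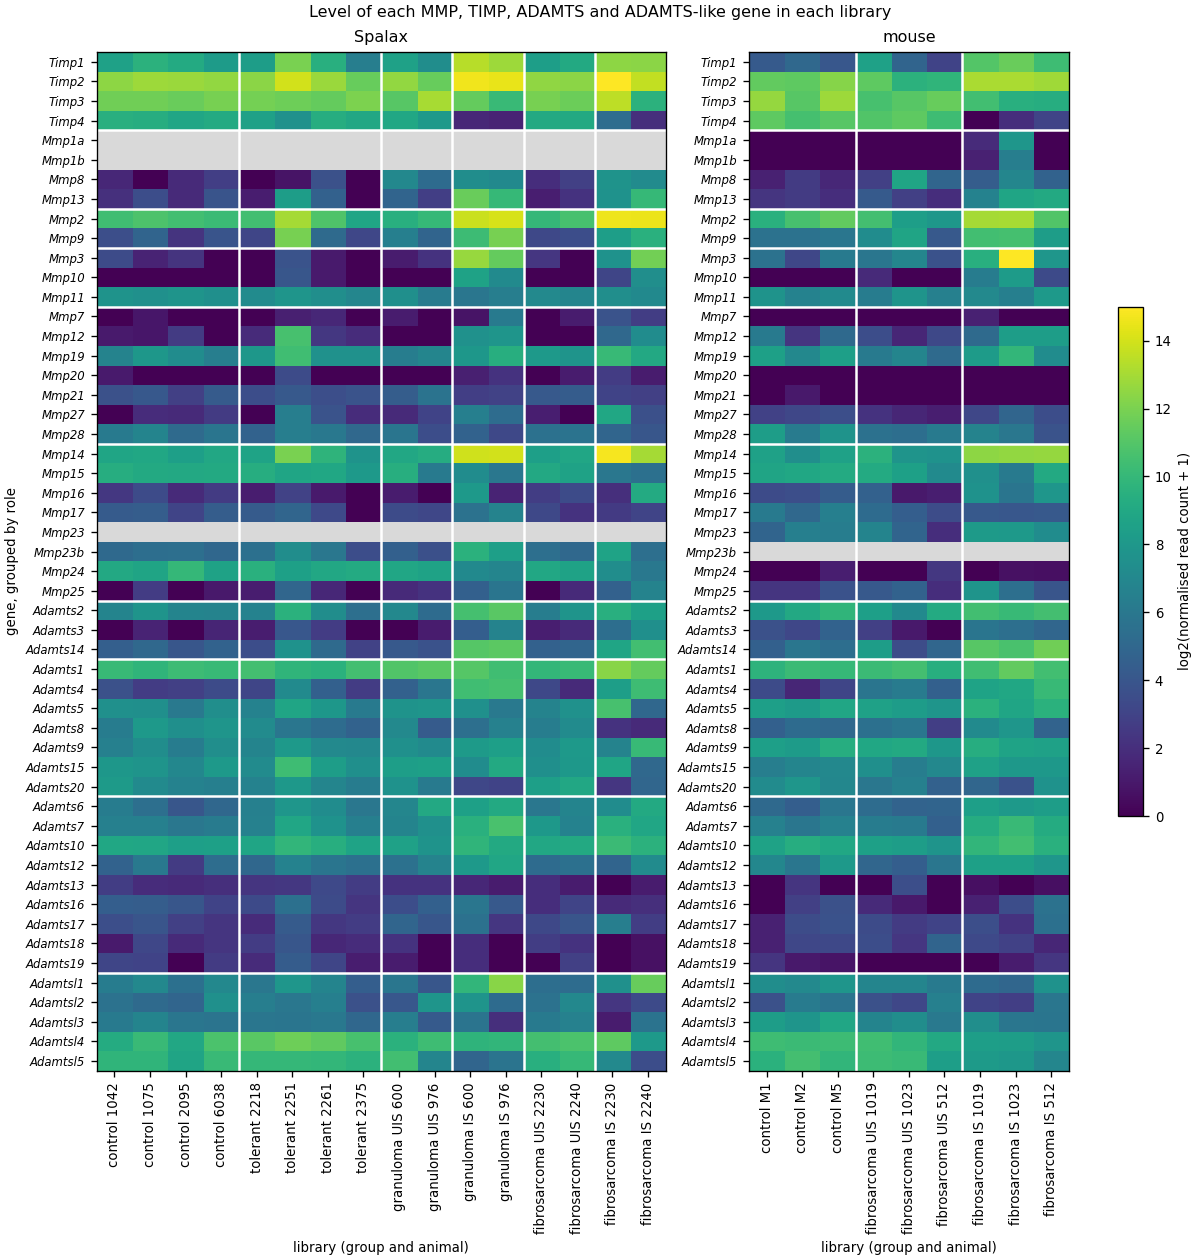
Each row is a gene, each column a library, and the color is log2(normalised read count + 1), with Spalax left and mouse right, white lines between groups and roles, and grey where a species has no such gene row. Tumor IS columns are brighter than UIS columns for Timp1, Mmp14, Mmp2, Mmp13 and Adamts14 and darker for Timp4, and tolerant 2251 is brighter than the other tolerant libraries for Mmp9 and Mmp12.

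Of 35 genes tested in all 3 comparisons, 8 rose in each, namely Timp1, Mmp2, Mmp12, Mmp13, Mmp14, Adamts3, Adamts4 and Adamts14, and Timp4 fell in each. Of the 10965 genes with the same symbol that were tested in all 3, 6.98% rose in each and 8.73% fell in each. A further 7 rose in 2 of the 3 (Timp2, Mmp3, Mmp9, Mmp25, Adamts2, Adamts7 and Adamts12), as 8.64% of all genes did. A call in one tumor and none in another is not a difference between them, which is tested further on.

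**Figure D2:**
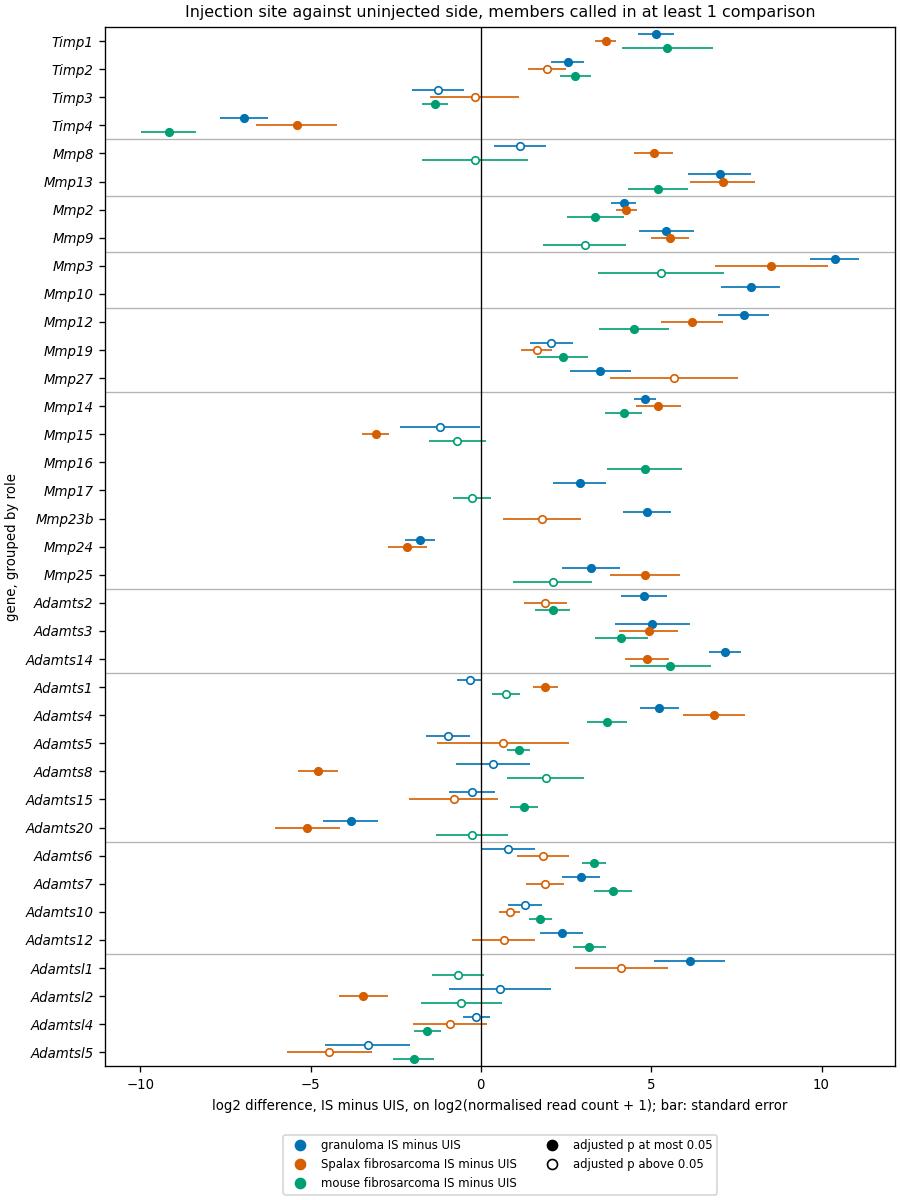
Points give the log2 difference between IS and UIS, on log2(normalised read count + 1), and bars its standard error, for the genes called in at least 1 of the 3 comparisons (filled points, adjusted p at most 0.05). Timp4 lies far left of 0 in all 3 tumors, at −6.95, −5.41 and −9.16, and Mmp13, Mmp12, Adamts14 and Adamts3 lie far right of it.

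The inhibitors moved in opposite directions. Timp1, a secreted inhibitor of most MMPs, stood at 10930 and 7246 normalised counts in granuloma IS and at 387.1 and 162.5 in the paired UIS. In fibrosarcoma its level was 5548 and 5351 at the IS against 332.7 and 554 at the UIS. Mouse tumors had 2061, 2991 and 1317, and mouse UIS had 387, 27.9 and 7.20. The sides did not overlap in any of the 3 sets, and neither did those of 69.8%, 74.3% and 60.2% of all genes tested. Timp1 rose by 5.14 (SE 0.52), 3.66 (SE 0.32) and 5.48 (SE 1.33) on the log2 scale, with adjusted p of 0.00694, 0.00449 and 0.0173. edgeR gave an adjusted p of 0.0561 for the mouse rise. The mouse UIS of animal 1019, at 387, was far above the mouse controls (15.6 to 33.2), and the same library had 331.3 normalised counts of Adamts14 against 10.3 and 30.2 in the other UIS.

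Timp4, an inhibitor known for its high level in heart and skeletal muscle, was the gene with the largest fall in each tumor. Granuloma UIS had 486 and 280.3 normalised counts of Timp4 and granuloma IS 2.18 and 1.81. Fibrosarcoma UIS had 557.3 and 550.4 and fibrosarcoma IS 40.8 and 3.07. In the mouse 1943, 2467 and 1307 at the UIS stood against 0, 2.97 and 7.37 at the IS. Timp4 thus fell in each set, with log2 differences of −6.95 (SE 0.71), −5.41 (SE 1.19) and −9.16 (SE 0.80) and adjusted p of 0.00704, 0.0288 and 0.00131. Over the same libraries all 7 tested skeletal muscle markers fell in each Spalax tumor and all 9 tested ones in the mouse, and the part of the muscle loss in the fall of Timp4 was not tested.

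Timp2, which both inhibits MMPs and helps Mmp14 to activate Mmp2, was higher in each tumor than in its UIS. Its granuloma values were 26230 and 23630 at the IS and 6031 and 2962 at the UIS, a log2 rise of 2.56 (SE 0.48, adjusted p 0.0220). In the mouse it rose by 2.77 (SE 0.45, adjusted p 0.00513), from 2500, 780.7 and 915.6 to 8665, 8722 and 7573. In fibrosarcoma the values were 35870 and 12640 against 5816 and 5312, and the difference of 1.94 (SE 0.56) had an adjusted p of 0.0564, or 0.0405 with the animal as a block. The tumors were thus above their UIS in every set, but in fibrosarcoma the call depended on the block.

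Timp3, an inhibitor that stays bound to the matrix and also blocks ADAMTS proteases, differed between the tumors of 1 group. Fibrosarcoma IS 2230 held 11830 normalised counts and IS 2240 held 806.5, one above and one below the UIS values of 3816 and 3233. Granuloma IS had 2813 and 1145 against 2241 and 8265 at the UIS, and adjusted p was 0.924 and 0.268. In the mouse Timp3 fell by 1.34 (SE 0.38, adjusted p 0.0287), from 1618, 2173 and 2967 to 1391, 697.5 and 660. That call was lost with the animal as a block (adjusted p 0.0617) and under scaling by total reads (0.546).

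**Figure D3:**
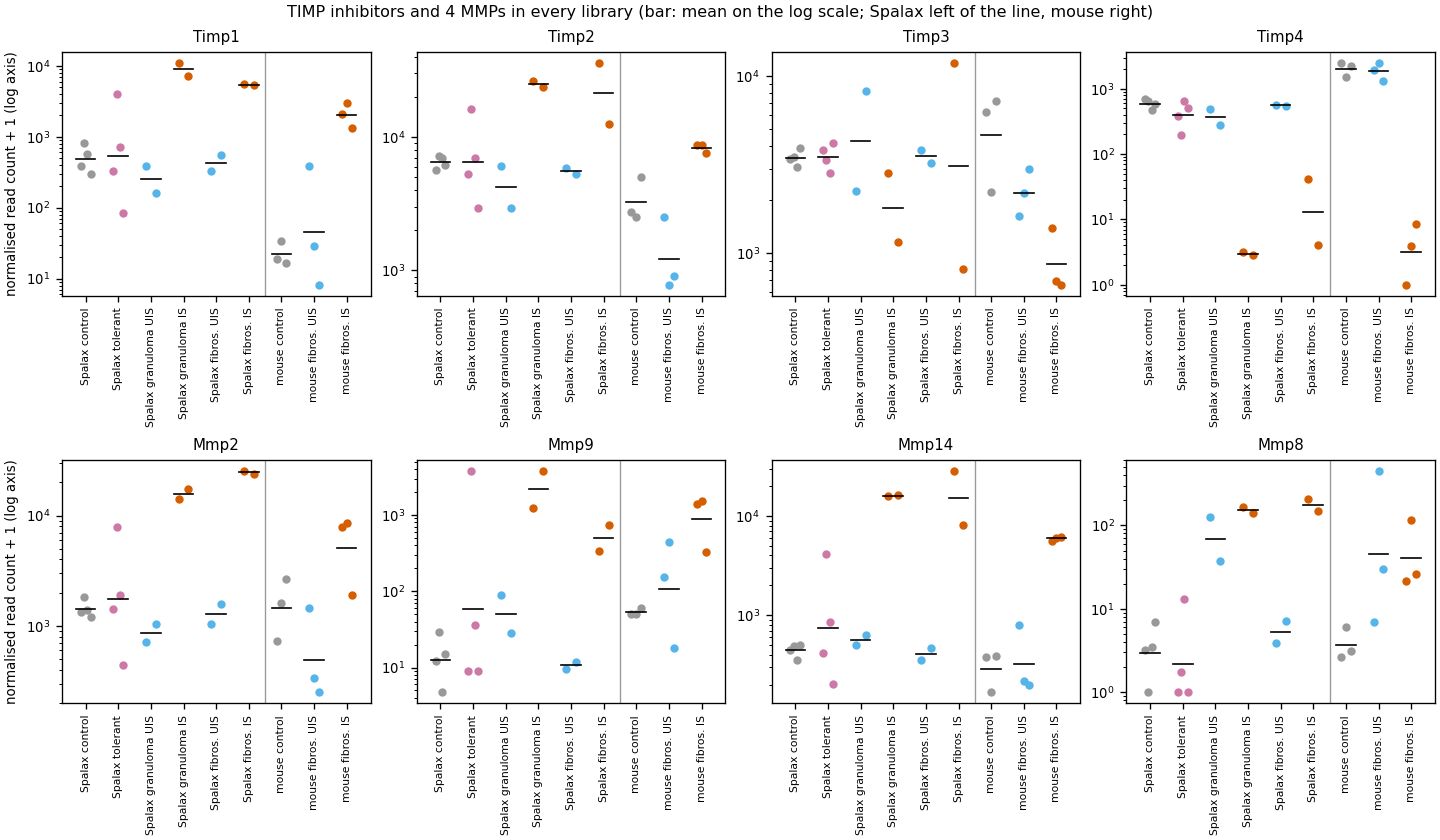
Each panel shows 1 gene, with a point per library, normalised read count + 1 on a log axis, a bar at the mean on the log scale, and Spalax left of the grey line. Timp4 is low at the tumor IS alone, and Mmp14 is above its UIS in all 7 tumors.

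Mmp14, Mmp2 and Mmp9 are a membrane-bound MMP that activates Mmp2, and the gelatinases, which digest denatured and basement membrane collagen. Mmp14 stood at 15720 and 16190 in granuloma IS against 501.7 and 628.9 in UIS, and at 28650 and 8023 in fibrosarcoma IS against 355.4 and 468. The mouse tumors lay close together at 5640, 6024 and 6209, where the UIS had 801.7, 215.5 and 197.2. Mmp14 rose by 4.83 (SE 0.33), 5.21 (SE 0.66) and 4.19 (SE 0.54), with adjusted p of 0.00490, 0.00842 and 0.00283. All 7 tumors lay above every control and UIS library of their species. Between IS and UIS alone, 69.8%, 74.3% and 60.2% of all genes did not overlap, in either direction.

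Mmp2 stood at 14130 and 17480 in granuloma IS against 710.3 and 1045, and at 25580 and 23920 in fibrosarcoma IS against 1035 and 1586. Its log2 rises of 4.19 (SE 0.37, adjusted p 0.00586) and 4.27 (SE 0.31, adjusted p 0.00325) were close to each other. In the mouse 7947, 8547 and 1912 at the IS compared with 1443, 335.2 and 249.1 at the UIS, a rise of 3.35 (SE 0.84, adjusted p 0.0192). Tumor 512 was the lowest of the mouse tumors in Mmp2. It also had their lowest macrophage sum, 3353 against 13950 and 19160, and their lowest endothelial sum, 1647 against 2947 and 10220. Its skeletal muscle sum was the highest of them, 66860 against 176.8 and 21180. The Spalax fibrosarcomas, alike in Mmp2, had macrophage sums of 33840 and 9083. The part of tissue makeup in these Mmp2 values was not tested.

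Mmp9, much of which comes from neutrophils and macrophages, had 1250 and 3823 normalised counts in granuloma IS and 337 and 728.5 in fibrosarcoma IS. The UIS had 89.2 and 27.1, and 8.53 and 10.9. It rose by 5.44 (SE 0.81, adjusted p 0.0135) and 5.54 (SE 0.56, adjusted p 0.00565). Mouse values were 1394, 1521 and 330 at the IS and 154.8, 439.3 and 17.3 at the UIS, where the lowest tumor lay below the highest UIS, and adjusted p was 0.0816, or 0.0135 with the animal as a block. That UIS library, of mouse 1023, had a neutrophil marker sum of 15380 against 315.6 and 365.7 in the other mouse UIS.

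The collagenases Mmp13 and Mmp8 cut intact fibrillar collagen. Mmp13 rose in every tumor, by 7.01 (SE 0.92), 7.10 (SE 0.96) and 5.19 (SE 0.88), with adjusted p of 0.0105, 0.00986 and 0.00582. Its values were 3097 and 1059 against 27.7 and 5.89 in granuloma, 200.3 and 1046 against 1.42 and 3.64 in fibrosarcoma, and 99.2, 459.1 and 562.1 against 18.1, 6.19 and 2.88 in mouse. No uninjected library reached the lowest tumor of its set, where 69.8%, 74.3% and 60.2% of all genes did not overlap in either direction.

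Mmp8, the collagenase stored in neutrophil granules, showed another pattern. All 4 Spalax tumors had similar levels, 164 and 140.2 in granuloma and 205.7 and 148.8 in fibrosarcoma. The UIS differed, with 126.6 and 36.5 in the granuloma animals and 2.84 and 6.06 in the fibrosarcoma animals, so that the rise of 5.08 (SE 0.57, adjusted p 0.00678) was called in fibrosarcoma and the difference of 1.14 (SE 0.76, adjusted p 0.311) was not called in granuloma. The neutrophil marker sum was 3084 and 1055 in the granuloma UIS, against 336.9 and 223.1 in the fibrosarcoma UIS and 121.3 to 199 in controls. At the IS it was 7519 and 5829 in granuloma and 1309 and 6100 in fibrosarcoma, so the tumor with the most Mmp8 had the lowest sum. In the mouse UIS 1023 held 452.8 normalised counts of Mmp8, above all tumors (20.7, 116.3 and 25.3), and this library had the neutrophil sum of 15380 given above. The mouse tumors had neutrophil sums of 1408, 1777 and 408.4. The part of neutrophils in these Mmp8 values was not tested.

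The stromelysins Mmp3 and Mmp10 degrade proteoglycans and activate other MMP precursors. Granuloma IS had 6484 and 2794 normalised counts of Mmp3, from 1.21 and 3.53 at the UIS, a rise of 10.39 (SE 0.71, adjusted p 0.00492). Fibrosarcoma IS had 200.9 and 3553, where the UIS libraries together held 3 reads, for a ratio of 945 (95% interval 323 to 4590 from counting error only). The limma rise there was 8.53 (SE 1.65, adjusted p 0.0217). Animals thus differed widely within the fibrosarcoma group.

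In the mouse the spread was larger still. Mmp3 stood at 34380 in the tumor of mouse 1023 and at 718.4 and 236.9 in the other tumors, against 58.0, 116.5 and 13.0 at the UIS, and limma gave 5.30 (SE 1.85, adjusted p 0.0558, or 0.0153 with the animal as a block). The tumor of mouse 1023 was also highest in Mmp10, with 299.5 against 78.6 and 9.47. It held 236.1 normalised counts of Mmp1a and 86.0 of Mmp1b, where the other tumors had 2.58 and 0 of Mmp1a and 1.55 and 0 of Mmp1b, and where all control and UIS libraries had none. Mmp3, Mmp10, Mmp1a and Mmp1b, neighbours on chromosome 9, were thus all highest in the same tumor. This was not particular to the cluster, since members on other chromosomes, such as Timp1, Mmp2 and Adamts1, were highest there too. Others, such as Mmp14 and Adamts14, were highest in tumor 512, and the share of all genes highest in tumor 1023 was not determined. The rest of the cluster was mixed. Mmp8 (116.3) and Mmp27 (28.5) were also highest in tumor 1023, and Mmp12 stood at 329.8 there and 329 in tumor 512. Mmp13 was highest in tumor 512, at 562.1 against 459.1 in tumor 1023, and Mmp7 was seen only in tumor 1019, at 1.55.

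Mmp10 had no read in either granuloma UIS library and 404.3 and 145 normalised counts in the granuloma IS, at least 147-fold higher when 3 reads over the UIS libraries are taken as the floor (adjusted p 0.00795). In Spalax fibrosarcoma Mmp10 did not pass the filter, with 7.80 and 172.1 at the IS and 0 at the UIS. Mmp11, or stromelysin 3, is grouped here by name and behaved differently. It had 58.1 to 167.9 normalised counts in the Spalax tumors and 74.2 to 177.3 in their UIS, and adjusted p was 0.480, 0.556 and 0.655 in the 3 comparisons.

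Mmp12, the elastase of macrophages, was not detected in any of the 4 Spalax UIS libraries. It reached 195.3 and 226 in granuloma IS, at least 119-fold higher, and 32.4 and 158.6 in fibrosarcoma IS, at least 48.2-fold higher, on the same floor. limma called both (adjusted p 0.00658 and 0.0115) and the mouse rise of 4.49 (SE 1.03, adjusted p 0.0145), from 10.9, 2.06 and 8.64 to 35.2, 329.8 and 329. The macrophage marker sum was also higher in the Spalax tumors, at 8721 to 33840 against 1045 to 2709 in the UIS. Between tumors the order differed. The sum was 8721 and 20780 in the granuloma IS, in the order of Mmp12. In the fibrosarcoma IS it was 33840 and 9083, in the reverse order. In the mouse tumors it was 19160, 13950 and 3353, beside Mmp12 values of 35.2, 329.8 and 329. The part of macrophages in these values was not tested. The largest Mmp12 value of all Spalax libraries was in none of these tumors but in tolerant 2251.

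**Figure D4:**
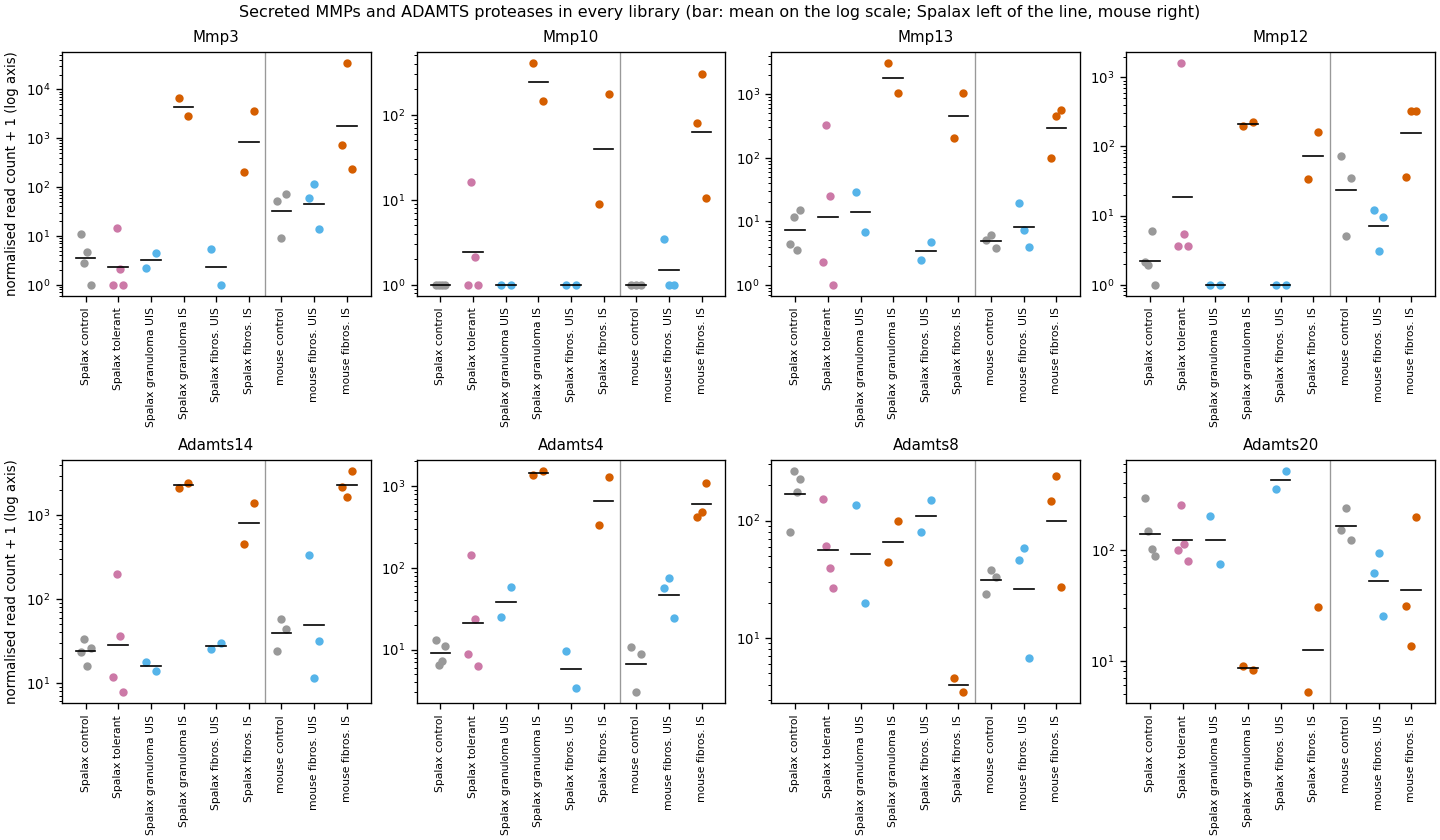
Each panel shows 1 gene as in the panels of the inhibitors, with normalised read count + 1 on a log axis, a point per library and a bar at the mean on the log scale. Mmp3 reaches 34380 in mouse tumor 1023, Mmp12 reaches 1607 in tolerant 2251, and Adamts8 is at 3.60 and 2.46 in the Spalax fibrosarcomas.

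Among the other membrane-bound MMPs, Mmp25, also known from leukocytes, rose in granuloma (3.23, SE 0.85, adjusted p 0.0482, or 0.0590 with the block) and in fibrosarcoma (4.81, SE 1.03, adjusted p 0.0272). Mmp16 rose in the mouse by 4.80 (SE 1.11, adjusted p 0.0148), with 195.4, 56.9 and 237.9 against 24.2, 1.03 and 1.44. In the Spalax tumors Mmp16 was uneven, with 278 and 1.81 in granuloma IS and 3.00 and 582.8 in fibrosarcoma IS. Mmp24, best known from neurons, fell in both Spalax tumors, by 1.79 (SE 0.44, adjusted p 0.0402, or 0.0661 with the block) and 2.15 (SE 0.57, adjusted p 0.0449), and neither call was kept under scaling by total reads. Granuloma IS had 137.2 and 113 normalised counts of Mmp24, against 467.9 and 402.8 at the UIS. Mmp15 fell in fibrosarcoma by 3.09 (SE 0.39, adjusted p 0.00828), from 520.3 and 401.3 to 61.2 and 45.5. Its granuloma values, 155.3 and 59.8 against 677.7 and 73.0, overlapped.

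The procollagen N-proteinases Adamts2, Adamts3 and Adamts14 remove the amino-terminal propeptide of fibrillar collagens. All 3 rose in granuloma and in the mouse, and Adamts3 and Adamts14 rose in fibrosarcoma. Adamts14 had 2149 and 2428 normalised counts in granuloma IS against 16.9 and 13.0, 458.8 and 1424 in fibrosarcoma IS against 24.2 and 29.1, and 2210, 1644 and 3439 in mouse tumors against 331.3, 10.3 and 30.2. Its log2 rises were 7.18 (SE 0.47), 4.88 (SE 0.65) and 5.57 (SE 1.18), with adjusted p of 0.00490, 0.00942 and 0.0111. Adamts2 had 1556 and 2318 in granuloma IS against 125.4 and 36.5 (4.79, SE 0.68, adjusted p 0.0121). In fibrosarcoma it had 693.8 and 365.2 against 82.5 and 220.6, which was not called (adjusted p 0.0779). The fibroblast marker sum, which includes Col1a1, Col1a2 and Col3a1, was 1837000 and 846400 in the granuloma IS and 429300 and 113800 in the fibrosarcoma IS.

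The proteoglycan-cleaving ADAMTS split. Adamts4, an aggrecanase, rose in every tumor, with 1360 and 1547 against 24.1 and 57.7 in granuloma (5.24, SE 0.57, adjusted p 0.00790). In fibrosarcoma it had 337.6 and 1286 against 8.53 and 2.42 (6.85, SE 0.91, adjusted p 0.00942), and in the mouse 413.5, 482.2 and 1103 against 55.6, 74.3 and 23.0 (3.69, SE 0.59, adjusted p 0.00472). Adamts1, an inhibitor of vessel growth that also cuts proteoglycans, rose in fibrosarcoma from 976.7 and 1102 to 5227 and 2809 (1.88, SE 0.37, adjusted p 0.0219). Adamts5, the other main aggrecanase, rose in the mouse by 1.11 (SE 0.34, adjusted p 0.0371, or 0.0537 with the block). In fibrosarcoma its tumors lay far apart, at 1612 and 30.7.

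Adamts20, which acts on versican and is known from coat color patterning, fell in Spalax. Granuloma IS had 7.99 and 7.25 normalised counts against 199 and 73.0 (−3.82, SE 0.80, adjusted p 0.0280), and fibrosarcoma IS had 4.20 and 29.5 against 354 and 517.7 (−5.09, SE 0.96, adjusted p 0.0203). The mouse sides overlapped, with 30.0, 12.5 and 197.4 against 60.5, 91.8 and 24.5 (adjusted p 0.853). Adamts8 fell in fibrosarcoma from 79.6 and 149.1 to 3.60 and 2.46 (−4.79, SE 0.58, adjusted p 0.00786). In granuloma it was at 43.6 and 97.3 against 133.9 and 18.8, and in the mouse at 144.7, 238.4 and 26.3 against 44.7, 57.8 and 5.76 (adjusted p 0.835 and 0.207, the latter 0.0235 with the block). Each mouse had more Adamts8 in its tumor than in its own UIS.

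Adamts3 was near the detection limit in Spalax muscle, with 1 read over the granuloma UIS and 3 over the fibrosarcoma UIS libraries. The tumors had 21.1 and 104.5 normalised counts in granuloma, a ratio of 112 (95% interval 19.8 to 4440), and 42.0 and 176.4 in fibrosarcoma, a ratio of 55.2 (95% interval 18.7 to 269). In the mouse Adamts3 rose by 4.13 (SE 0.79, adjusted p 0.00821), from 6.05, 1.03 and 0 to 56.3, 42.7 and 29.5. No tumor overlapped its UIS group, as in 69.8%, 74.3% and 60.2% of all genes in either direction.

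Smaller or single rises completed the calls. Mmp23b, a membrane-tethered MMP, had 760 and 348.6 normalised counts in granuloma IS against 22.9 and 11.8 (4.88, SE 0.70, adjusted p 0.0125). Mouse Mmp23, given the same role here, had 285.8, 275.2 and 155.3 at the IS against 108.8, 27.9 and 2.88 at the UIS. Its difference of 3.325 (SE 1.17) had an adjusted p of 0.0561, or 0.0311 with the block. Mmp17 had 50.1 and 105.7 in granuloma IS against 9.65 and 8.24 (2.90, SE 0.76, adjusted p 0.0479, or 0.0688 with the block). Mmp19, which is widespread in tissues, rose in the mouse by 2.40 (SE 0.75, adjusted p 0.0399), and was at 1120 and 522.5 in Spalax fibrosarcoma against 275.8 and 215.8 (adjusted p 0.0511, or 0.0317 with the block). Adamts15 rose in the mouse by 1.26 (SE 0.41, adjusted p 0.0433), from 179, 79.4 and 125.2 to 385.1, 253.9 and 256.3. Adamts9, Adamtsl3 and Mmp28 passed the filter in all 3 comparisons and were called in none of them.

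Among the ADAMTS whose substrates are less uniform, Adamts7 and Adamts12, which cut cartilage oligomeric matrix protein, rose in granuloma (2.94, SE 0.56 and 2.37, SE 0.63) and in the mouse (3.89, SE 0.56 and 3.19, SE 0.48). Adamts6 and Adamts10, a closely related pair, rose in the mouse by 3.33 (SE 0.35) and 1.75 (SE 0.34). All 4 tested genes of this role were called in the mouse, 2 of 6 in granuloma and 0 of 5 in fibrosarcoma, where the differences ran from 0.67 to 1.89 and were all positive. The shares of all genes called were 45.1%, 24.3% and 36.3%, so that 2 of 6 in granuloma was near the background. With the animal as a block Adamts7 was called in fibrosarcoma too (adjusted p 0.0273). Adamts13, which cleaves von Willebrand factor, Adamts18 and Adamts19 did not pass the filter in fibrosarcoma or mouse, and none exceeded 27.4 normalised counts in any library.

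The ADAMTS-like proteins, which bind fibrillin and other matrix components, gave few rises. Adamtsl1 rose in granuloma, with 920.4 and 5190 against 59.1 and 15.3 (6.13, SE 1.04, adjusted p 0.0176), and had 182.3 and 2876 in fibrosarcoma IS against 42.6 and 38.8 (adjusted p 0.0762, or 0.0374 with the block). In the mouse it had 36.2, 29.7 and 196.3 against 111.3, 112.4 and 69.1, in overlapping sides. Adamtsl2, linked to TGF-beta signalling and microfibrils, fell in fibrosarcoma from 49.8 and 124.9 to 4.20 and 9.22 (−3.45, SE 0.72, adjusted p 0.0257). Adamtsl5 fell in the mouse from 1243, 1152 and 338.3 to 282.2, 242.6 and 115.8 (−1.97, SE 0.61, adjusted p 0.0372). Adamtsl4 fell there from 1333, 931.3 and 521.1 to 336.5, 328 and 222.6 (−1.57, SE 0.40, adjusted p 0.0203). Under scaling by total reads the adjusted p of these mouse falls was 0.288 and 0.382, and the mouse falls of Timp3, Adamtsl4 and Adamtsl5 were not kept.

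In the mouse, where exon lengths were at hand, levels could be compared between genes as normalised counts per kilobase of merged exon. In controls the highest means were those of Timp2 (876), Timp3 (642), Mmp2 (493) and Timp4 (348). In the tumors they were Mmp3 (6540), Timp1 (2390), Timp2 (2140), Mmp2 (1820) and Mmp14 (1000). Timp4 went from rank 4 of the 50 genes in controls to rank 44 in the tumors, at 0.584. The first place of Mmp3 came from 1 tumor, since its level was 19100 in mouse 1023, 399 in mouse 1019 and 132 in mouse 512, whereas Timp1 had 3370, 2320 and 1480.

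The second question was whether the tumor kinds or the species differed in their response. The difference between the fibrosarcoma and the granuloma response, tested as an interaction, was called by limma for 0 of 45 genes, and 0% of all 15584 genes were called. At an unadjusted p below 0.05 there were 6, edgeR called 0 and DESeq2 called 1, Mmp8 (4.37, SE 1.18, adjusted p 0.0385), where 4.92% of all genes had such a p in limma and DESeq2 called 0.539%. Adamts1 (2.21, SE 0.54), Mmp8 (3.94, SE 1.02), Adamts8 (−5.14, SE 1.39), Adamts2 (−2.90, SE 1.02) and Adamts14 (−2.30, SE 0.81) had the smallest p in limma, each with an adjusted p of 0.946. Both tumor kinds against each other, IS against IS, gave 0 of 42 genes (8 at an unadjusted p below 0.05, against 4.06% of all genes), against 0% of 14562 genes. edgeR called 0 there and DESeq2 called 3, against 1.04% of all genes, all lower in fibrosarcoma, namely Adamts8 (−4.56, SE 1.04), Mmp17 (−3.70, SE 0.94) and Adamtsl2 (−4.25, SE 1.12).

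The response of Spalax fibrosarcoma minus that of mouse fibrosarcoma was called for 0 of 44 shared genes by limma, where 4.55% of 12816 genes were called. At an unadjusted p below 0.05 there were 7, edgeR called 0, and DESeq2 called 6 (Adamts8, Adamts20, Adamts4, Adamtsl1, Mmp8 and Timp4). These counts were not above the background, since 22.7% of all genes had an unadjusted p below 0.05 and DESeq2 called 14.7%. Adamts8 came nearest, with a difference of −6.69 (SE 1.60, adjusted p 0.0517), and passed with the animal as a block (adjusted p 0.0439) and without UIS 512 or IS 512 of the mouse (0.0447 and 0.0332). Timp4 had a difference of 3.75 (SE 1.52, adjusted p 0.185), that is, a smaller fall in Spalax. Leaving out 1 Spalax tumor moved the count to 3, with other genes for each tumor, where 4.46% and 4.52% of all genes were called. Without IS 2240 these were Mmp27, Timp3 and Adamtsl3, and without IS 2230 they were Adamtsl1, Adamts5 and Adamts15.

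The next comparisons concerned animals and sides without a tumor. Tumor IS of all 4 Spalax against the 4 tolerant animals gave 22 calls among 41 genes, where 46.4% of all 14578 genes were called, and 17 of them were higher in tumors, against 22.4%. Mmp3 differed most, with 200.9 to 6484 in tumors against 0, 13.5, 1.10 and 0 in tolerant 2218, 2251, 2261 and 2375 (9.66, SE 1.20, adjusted p 0.000373). Mmp8 had 140.2 to 205.7 in tumors against 0, 0.75, 12.0 and 0 (6.23, SE 0.81, adjusted p 0.000481). Both genes separated every tumor from every tolerant library, as 41.7% of all genes tested and 15 of the 41 genes did in either direction. Mmp13 (6.28, SE 1.67, adjusted p 0.0143, edgeR 0.0630) and Timp4 (−5.98, SE 0.86, adjusted p 0.000801) completed the 4 largest differences. Since these tumor libraries also enter the IS against UIS comparisons, the counts are not independent.

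Tolerant 2251, a male sampled at 18 months, carried a set of these genes at tumor-like levels. It had 1607 normalised counts of Mmp12, where the other tolerant animals had 2.65 to 4.38 and the tumors at most 226. Its Mmp9 value was 3808 against 7.93 to 35.0, near the highest tumor at 3823. Mmp14 stood at 4113, Mmp2 at 7938 and Timp1 at 3997, each between the other tolerant animals and the tumors. Its macrophage sum was 13780 against 883.2 to 3463 in the other 3, and its skeletal muscle sum 818800 against 1759000 to 2765000. Mmp3 and Mmp8 did not share this, at 13.5 and 0.75, while Timp4 was at 192.9 against 379.5 to 649.3.

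Without tolerant 2251 the count against tumors rose from 22 to 26, with 53% of all genes called. Mmp9 then differed by 6.19 (SE 0.84, adjusted p 0.000568) instead of 4.18 (SE 1.79, adjusted p 0.0823), and Mmp12 by 4.90 (SE 0.71, adjusted p 0.000779) instead of 2.75 (SE 1.84, adjusted p 0.244). The calls of Mmp3, Mmp8 and Mmp13 were there with and without this animal.

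**Figure D5:**
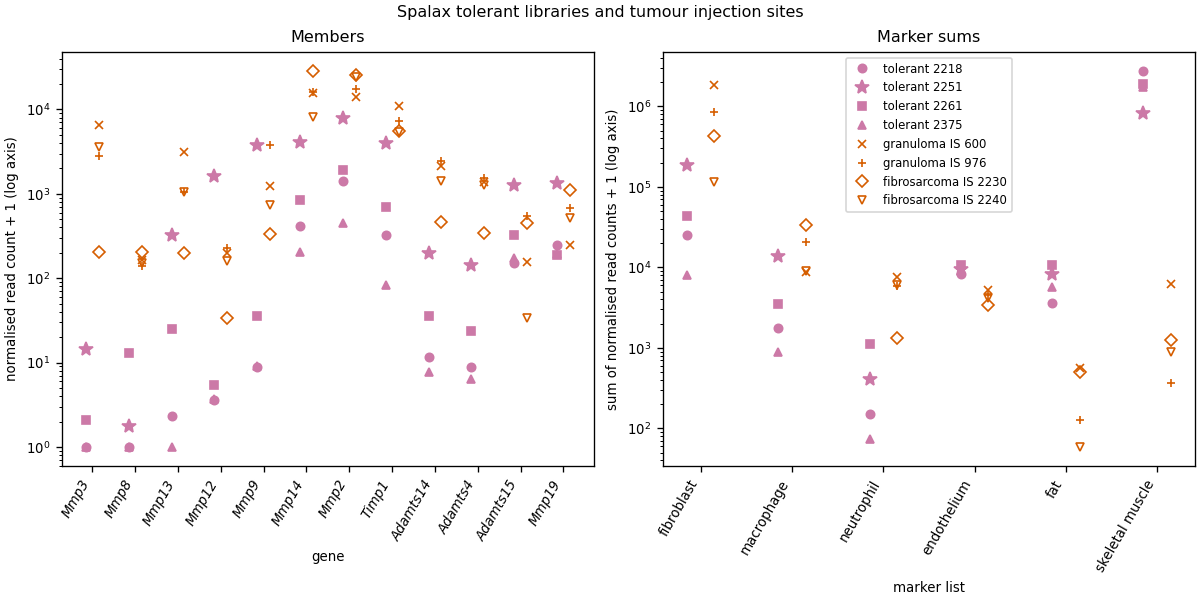
The left panel plots normalised read count + 1 on a log axis for 12 genes in the 4 tolerant libraries (filled, tolerant 2251 as a star) and the 4 tumor IS libraries (open), and the right panel the summed counts of 6 cell type marker lists. Tolerant 2251 lies among or above the tumors for Mmp12 and Mmp9 and below all of them for Mmp3, Mmp8 and Adamts4.

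Tolerant against control animals gave 0 of 34 genes (3 at an unadjusted p below 0.05, against 5.23% of all genes, and 0 by edgeR and DESeq2), against 0% of 14020 genes. The controls were all female and the tolerant animals 3 males and 1 female, and the count was 0 with sex as a covariate too. Spalax UIS of tumor-bearing animals against control gave 0 of 33 (4 at an unadjusted p below 0.05, against 16.6% of all genes), against 0% of 13909 genes. DESeq2 called Adamts6 (2.35, SE 0.69, adjusted p 0.0278) and 3.70% of all genes. In the mouse the same comparison gave 0 of 35 (9 at an unadjusted p below 0.05, against 11.0% of all genes), against 0% of 14792 genes. edgeR called 0, and DESeq2 called 3 genes, against 2.30% of all genes, namely Adamts4 higher in UIS (2.96, SE 0.73, adjusted p 0.00571) and Adamtsl3 (−1.61, SE 0.47) and Mmp19 (−1.93, SE 0.57) lower. Adamts4 had 9.78, 2.01 and 7.80 in mouse controls and 55.6, 74.3 and 23.0 in mouse UIS, without overlap. Of all genes tested there 21.2% did not overlap, in either direction.

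A list of 37 other genes of matrix proteolysis was read beside these genes. In granuloma 14 of its 32 tested genes rose and 1 fell, in fibrosarcoma 14 of 33 rose and 2 fell, and in the mouse 15 of 32 rose and 2 fell, where 11.7%, 17.4% and 22.8% of all genes rose. The plasminogen system, whose product plasmin activates MMP precursors, gave 5 rises among 7 genes in granuloma, 4 rises and 1 fall among 7 in fibrosarcoma, and 4 rises among 6 in the mouse, against the same shares of all genes. Among the largest rises in granuloma were those of the metalloprotease Adam12 (8.04, SE 0.69) and the plasminogen activator Plat (6.34, SE 0.82). In fibrosarcoma the largest were those of Adam12 (6.83, SE 0.99), the urokinase receptor Plaur (6.12, SE 0.99) and Serpinb2 (5.86, SE 1.33), and in the mouse Tfpi2 (4.94, SE 0.90), Adam19 (4.70, SE 0.87) and the cathepsin Ctss (4.35, SE 1.14).

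AP-1 and Ets factors bind promoters of many MMP genes. Of 9 such factors 1 rose and 2 fell in granuloma, 3 rose and 2 fell in fibrosarcoma, and 1 rose and 1 fell in the mouse. In both directions together 3, 5 and 2 of the 9 were called, where 24.3%, 36.3% and 45.1% of all genes were, so that the mouse count was below the background. Fosl1 rose in each, by 6.33 (SE 0.58, adjusted p 0.00631), 5.93 (SE 1.57, adjusted p 0.0450) and 3.82 (SE 0.78, adjusted p 0.0101). Ets2 fell in each, by 2.98 (SE 0.37), 1.16 (SE 0.26) and 1.12 (SE 0.36). Jun fell in granuloma by 2.55 (SE 0.41) and Fos in fibrosarcoma by 2.35 (SE 0.23).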

How the data were processed

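RNA-seq of 25 libraries was analysed, 16 from Spalax and 9 from mouse, with 1 deposited table per species. The authors trimmed single-end reads, mapped them to the genome of each species with TopHat and assigned them to genes with HTSeq. The submitters' processing notes name TopHat 1.4.1, DESeq and GRCm38, whereas the methods name TopHat2, edgeR and DESeq2. What was deposited is a normalised signal, the number of reads of a gene over the size factor of its library. In each library 100% of the values were whole multiples of the value of 1 read within 0.01, so whole reads were recovered. They were used for edgeR 4.0.16 and DESeq2 1.42.0 as alternatives.

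The main test was limma 3.58.1 (trend) in R 4.3.3 on log2(value + 1), keeping genes that reached 10 in at least the number of libraries of the smallest group. Differences are on that scale, which understates changes of low genes. p-values were adjusted by Benjamini-Hochberg over all genes tested, and calls made at 0.05. The IS and UIS libraries of an animal carry its number, so pairing is by animal. Same-animal libraries correlated by 0.0092 in granuloma, −0.0019 in fibrosarcoma and 0.047 to 0.178 in mouse, as deviations from the group means. The animal entered no reported fit unless named as a block.

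Values of the libraries compared, singly or as ranges, were given for Timp1 to Timp4, Mmp2, Mmp9, Mmp14 and Mmp8. They were also given for the 6 largest rises and 4 largest falls called in each IS against UIS comparison. The same was done for at most 4 called genes of any other comparison. Control values were mostly left to the figures. Single values of further genes were added after their values were seen. The genes and lists were chosen with earlier results of these data known. The animals of a group are separate animals. Intervals and floors cover counting error only. The limma procedure was also run on simulated counts with the same spread parameter for every gene. The tumors of a group differed far more widely for genes such as Mmp3, so that run does not give the error rates of the tests reported here. Python 3.11.15 was used for tables and figures.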

Additional observations from a re-analysis of the deposited data

Results flagged for a closer look

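A library was singled out where its gap to the nearest of the others, over the range of its group of 4, exceeded Dixon's critical value. Normally distributed values do so in about 1 of 20 groups, but normalised counts need not be so distributed. The genes were those chosen above for giving their values, many for a large tumor difference. Groups whose highest value was below 10 were skipped, so Mmp10, Mmp3 and Mmp8 in the tolerant group entered only through the flagged value. The share of all genes flagged was not determined. Of 38 gene and group pairs tested 12 exceeded the critical value, and 9 of them were at tolerant 2251. That library was the high one for Mmp12 (1607, others 2.65 to 4.38), Mmp9 (3808, others 7.93 to 35.0), Mmp14 (4113, others 203.7 to 850.8), Timp1 (3997, others 83.1 to 705.1) and Mmp13 (322.1, others 0 to 24.1). It was also high for Adamts14 (195.9, others 6.70 to 35.0), Adamts4 (142.6, others 5.36 to 23.0), Mmp10 (15.01, others 0 to 1.10) and Mmp3 (13.5, others 0 to 1.10). Its fibroblast and macrophage marker sums, 186100 and 13780, were the highest of the tolerant group as well, and their part in these values was not tested.

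The other 3 pairs were Mmp8 in tolerant 2261 (12.0, others 0 to 0.75), which had the highest neutrophil sum of its group (1112), Adamtsl5 in tolerant 2375 (789.4, others 992 to 1019) and Adamtsl2 in control 6038 (182, others 28.7 to 48.6).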

How the results depend on the processing

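Of the calls, 17 of 23 in granuloma, 17 of 19 in fibrosarcoma, 16 of 22 in mouse and 17 of 22 in tumor IS against tolerant were kept under every alternative that used all libraries, and no call changed sign among them. DESeq2 called 1 gene for fibrosarcoma minus granuloma, 6 for Spalax minus mouse, 3 for fibrosarcoma IS against granuloma IS, 1 for Spalax UIS against control and 3 for mouse UIS against control, where limma called 0; the cause was not tested. The replicate block gave 19 calls in granuloma (4 lost), 25 in fibrosarcoma (6 gained) and 24 in mouse (4 gained, 2 lost). Of all genes 21.1%, 33.2% and 44.1% were called with the block. It gave 0 calls for fibrosarcoma minus granuloma and 1 for Spalax minus mouse, against 0% and 0.757% of all genes. Leaving out 1 library at a time, or both of a mouse (an alternative chosen after the data were seen), gave 0 calls in granuloma, 0 to 30 in fibrosarcoma, 0 to 22 in mouse, 17 to 26 in tumor IS against tolerant and 0 to 3 for Spalax minus mouse, and 0 in the other 5 comparisons. A lone library left in a group is then assumed to vary like the other group. In tumor IS against tolerant, where no group was left with a lone library, 33.7% to 53% of all genes were called. The log2 difference of Timp3, fibrosarcoma IS against UIS, was −0.18 (not called) with all libraries, −2.12 without IS 2230 and 1.75 (adjusted p 0.0132) without IS 2240. Genes below about 7 reads in the UIS, such as Mmp12 and Mmp10, have folds limited by depth.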

Other observations

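Mouse Mmp24 had at most 4.32 normalised counts in any library, whereas the Spalax gene of that symbol had 62.1 to 1023, in a table normalised separately. In GENCODE vM21 13.6% of the mouse Mmp24 exons overlap a gene on the opposite strand.

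Of the MMP genes clustered on mouse chromosome 9, Mmp20 had no read and Mmp7 at most 1.55 normalised counts in any mouse library. Mouse Mmp27 had 8.27, 28.5 and 10.53 at the IS against 3.63, 2.06 and 1.44 at the UIS. In Spalax Mmp27 had 489.3 in fibrosarcoma IS 2230, 87.1 and 39.3 in granuloma IS and 11.7 in fibrosarcoma IS 2240, against 0 to 7.07 in the UIS. It was called in granuloma (adjusted p 0.0437, or 0.0614 with the animal as a block). Mmp7 was at 67.7 in granuloma IS 976 and at 0.73 in granuloma IS 600.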
